A study of Danio rerio with 45 samples.

Results

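Transcript levels were compared between zebrafish embryos that lacked either of 2 de novo DNA methyltransferases, dnmt3aa or dnmt3bb.2, on 15 arrays of each mutant out of 45 arrays in the series. The 30 arrays formed 10 groups of 3 replicates, 1 group for each mutant at the 1-2 cell, shield and 5-somite stages and at 1 and 2 days post-fertilization (dpf). Each array held RNA from a pool of 20 whole embryos, and the replicates came from independent experiments. The dnmt3aa mutants are labelled dnmt3aa-/- and are described in the methods as maternal-zygotic (MZdnmt3aa), so that their eggs also lacked the maternal gene product. The dnmt3bb.2 mutants are labelled dnmt3bb.2-/-, and whether their mothers were mutant is not given in the sources used here. The alleles are likewise not given here, and MZdnmt3aa and dnmt3bb.2 name the arrays by their labels throughout. The 15 wild-type (WT) arrays of the same 5 stages entered no test and are given only to place the mutants.

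DNA methyltransferases add methyl groups to cytosines. Dnmt1 copies methylation onto newly replicated DNA, whereas the Dnmt3 enzymes set methylation at sites that had none, and methylation of a promoter generally accompanies low transcription. The zebrafish has several Dnmt3 genes, with dnmt3aa and dnmt3ab related to mammalian Dnmt3a and the dnmt3b genes to mammalian Dnmt3b. RNA of the 1-2 cell stage is almost wholly maternal, since the embryo begins its own transcription later.

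The arrays were 1-colour Agilent arrays with 43603 probes, of which 27337 carried 1 gene symbol. A probe was tested if the scanner software marked it well above background on all 3 arrays of at least 1 of the 10 groups, which left 38744 probes and 13438 genes. Values are log2 signal scores of the deposited normalized values. Per array, 63.8 to 82.4% of probes were well above background in MZdnmt3aa and 62.3 to 84.5% in dnmt3bb.2. Replicates of a group correlated with Pearson's r of 0.973 to 0.996 across probes.

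The stage labels were checked at the 1-2 cell stage and 2 dpf. The oocyte linker histone h1m averaged 17.2 and 16.4 in MZdnmt3aa and dnmt3bb.2 at the 1-2 cell stage and 4.50 and 4.06 at 2 dpf. The muscle gene myom1a reached 14.1 and 15.002 at 2 dpf. In whole embryos, fewer cells of a type and less RNA per cell cannot be told apart.

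The mutants shared no slide and no scan day. All 15 MZdnmt3aa arrays were scanned on 1 day on 4 slides, and the 15 dnmt3bb.2 arrays on 2 other days on 7 slides. The WT arrays shared 6 slides and both scan days with dnmt3bb.2 and none with MZdnmt3aa. Every difference below therefore holds genotype, slide, scan day and the genetic background of each line together, and these cannot be told apart.

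With stage as a block, 14618 probes differed between the mutants at an adjusted p of 0.01 or below (37.7% of those tested; limma with Benjamini-Hochberg adjustment, as in every test that follows). With slide as a random block the count was 5508. Of the 14618 probes, 7068 (18.2%) were higher in MZdnmt3aa and 7550 (19.5%) in dnmt3bb.2. The 1-2 cell stage gave 13989 calls (36.1%), with 6664 higher in MZdnmt3aa. The shield stage gave 10837 (28%) and the 5-somite stage 10465 (27%). The count was 7925 (20.5%) at 1 dpf and 6509 (16.8%) at 2 dpf. The order of the stages changed when each was fitted alone, with 8241, 4380, 7015, 8286 and 4463 calls from the 1-2 cell stage to 2 dpf, and with array weights, with 16945 calls at the 1-2 cell stage and 20187 at 1 dpf. The median absolute difference at the 5 stages was 0.476, 0.404, 0.397, 0.346 and 0.307 on the log2 scale. The median SD among replicates was 0.118 to 0.287 in MZdnmt3aa and 0.0715 to 0.205 in dnmt3bb.2.

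**Figure D1:**
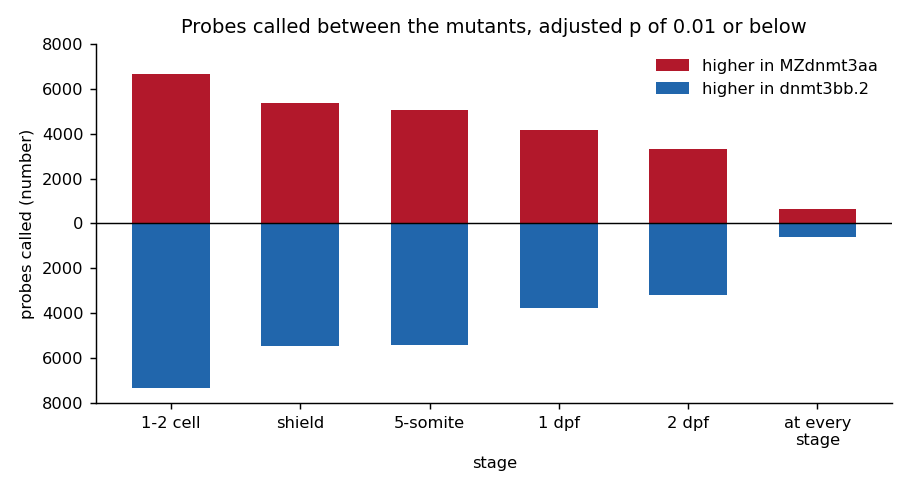
Number of probes called between the mutants (y axis) at each stage and at every stage in the same direction (x axis), with bars above 0 for probes higher in MZdnmt3aa and bars below 0 for probes higher in dnmt3bb.2. In the fit over all 30 arrays, 13989 probes were called at the 1-2 cell stage, 6509 at 2 dpf and 1212 at every stage.

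A set of 1212 probes (3.13% of those tested) separated the mutants with the same sign at each of the 5 stages, every one at an adjusted p of 0.01 or below. They are termed every-stage probes here. Of these, 621 (1.6%) were higher in MZdnmt3aa and 591 (1.53%) in dnmt3bb.2. Their median absolute difference was 1.06 and 1.22 on the log2 scale, beside 0.306 over all tested probes, and 341 and 387 of them differed by 2-fold or more (9.72% of all tested probes were called and differed by 2-fold). The probes closest to the threshold were one for srsf4, a splicing factor, inside it with a largest stage adjusted p of 0.00996, and one for ets2, a transcription factor, outside it with 0.01001. The values of 3214 probes (8.3%) did not overlap between the mutants at any stage, a weaker criterion. The remainder of the array was less uniform. The differences at the 1-2 cell stage and at 1 dpf correlated with r = 0.279 across 38744 probes, and those at 1 and 2 dpf with r = 0.771. These stages share no array and no slide, but each mutant's arrays at them were scanned on 1 day.

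The targeted genes were examined first. dnmt3bb.2 transcript was lower in the mutant of that name at every stage. Its log2 signal score was 10.38, 12.41 and 14.32 (lowest, median and highest of 15 arrays) in MZdnmt3aa and 8.94, 10.96 and 12.15 in dnmt3bb.2, and the mutants did not overlap at any stage. The difference was 1.90 ± 0.17 (SE, log2; adjusted p = 8.57e-10), smallest at the 1-2 cell stage (0.58) and largest at the 5-somite stage (3.06). WT lay nearer MZdnmt3aa at all 5 stages, with a median of 12.28.

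dnmt3aa transcript was higher in the mutant of its own name. The score was 8.30, 9.11 and 9.88 in MZdnmt3aa and 7.48, 8.55 and 9.07 in dnmt3bb.2, and WT spanned 7.71 to 9.24. The difference was 0.62 ± 0.06 (SE, log2; adjusted p = 6.1e-09) and passed the test at every stage but 2 dpf (adjusted p = 0.0155). WT lay nearer dnmt3bb.2 at all 5 stages. Where the probe lies relative to the mutation is not given here, so that its signal does not check the label.

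The dnmt3b relative dnmt3bb.1 lies 2 annotated genes from dnmt3bb.2. It was also higher in MZdnmt3aa, at 13.14, 13.76 and 15.14 against 11.001, 12.34 and 12.62. Whether its position contributes was not tested. Its difference was 3.41 at the 1-2 cell stage and 0.82 at 2 dpf, where it did not pass the test (adjusted p = 0.0332). WT reached 13.57 and lay nearer dnmt3bb.2 at 4 stages. The 2 probes of dnmt3ab were called at the 1-2 cell stage and at no other, by -3.29 and -4.78 (adjusted p = 5.85e-05 and 3.07e-05), where MZdnmt3aa was lower. Their interaction adjusted p was 0.00268 and 0.00286.

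The 5 probes of dnmt1, the maintenance enzyme, differed from each other. One was well above background on 15 of 15 MZdnmt3aa arrays and on 4 of 15 dnmt3bb.2 arrays, at 12.40, 15.25 and 18.51 against 1.80, 2.49 and 7.38. No dnmt3bb.2 array was well above background at shield, 1 dpf or 2 dpf, where MZdnmt3aa was at least 769.7-fold, 2990-fold and 1063-fold higher. The same probe was at 14.05 to 18.06 in WT. Another dnmt1 probe, with medians of 14.80 and 14.93 in the mutants, differed by 0.01 ± 0.06 (SE, log2; adjusted p = 0.880). The other 3 differed by 0.75, -0.42 and -0.02.

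**Figure D2:**
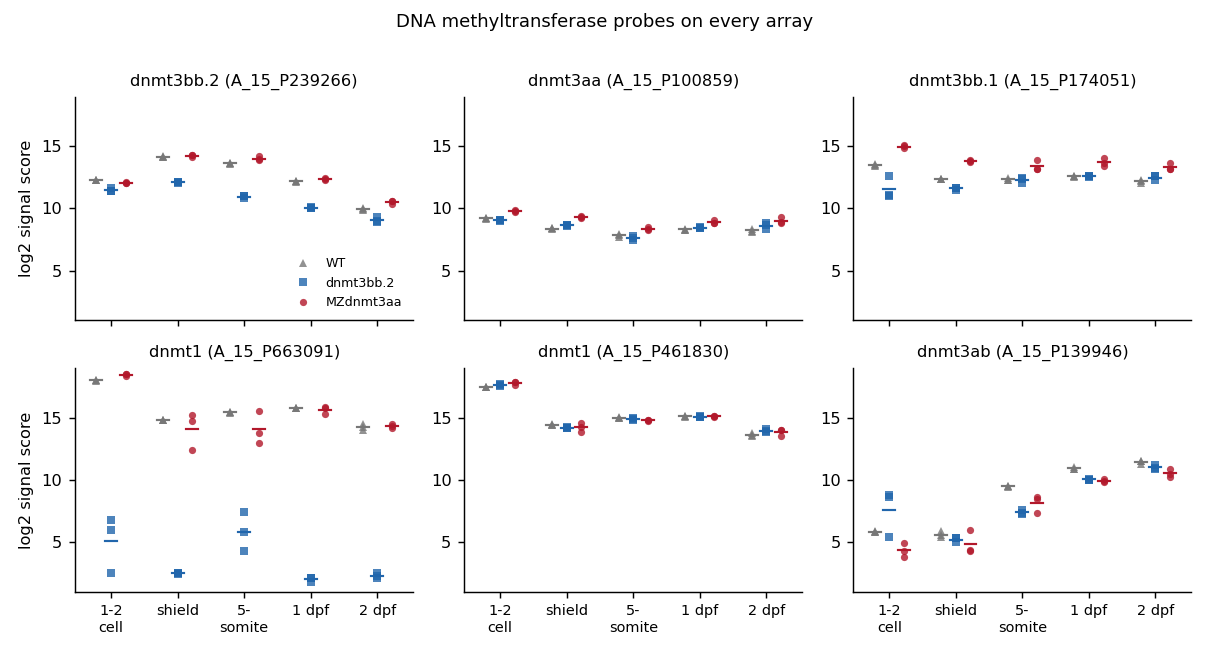
Log2 signal score (y axis) of 6 DNA methyltransferase probes on each array at the 5 stages (x axis); symbols are single arrays (n = 3 per group) and lines are group means. dnmt3bb.2 was lower in its mutant at every stage, and the 2 dnmt1 probes shown differed from each other in the dnmt3bb.2 mutant.

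Among every-stage probes measured well above background on all 30 arrays, those of the following genes had the largest differences. ddit4 encodes a stress-induced inhibitor of mTORC1 signalling. Its score was 10.07, 12.31 and 14.53 in MZdnmt3aa and 7.56, 9.30 and 12.08 in dnmt3bb.2, a difference of 2.91 ± 0.12 (SE, log2; adjusted p = 1.41e-16). The stage differences lay between 2.79 and 3.31, and no dependence on stage was detected (interaction adjusted p = 0.65). WT had a median of 11.74 and lay nearer MZdnmt3aa at 4 stages.

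noa1 encodes a mitochondrial GTPase. It was at 8.83, 10.17 and 11.09 in MZdnmt3aa and 5.61, 6.64 and 7.29 in dnmt3bb.2, and the mutants did not overlap at any stage (difference 3.51 ± 0.11, SE, log2; adjusted p = 1.37e-18). A pair of other noa1 probes differed by 0.16 and -0.41, so that the probes of this gene did not move together. faima, whose mammalian relative inhibits Fas-induced apoptosis, was at 9.84, 10.31 and 12.11 against 5.61, 7.25 and 8.28 (difference 3.46). Its second probe was also an every-stage probe (2.88). WT was at 2.39 or below on the first faima probe and had a median of 7.29 on the second. The remaining genes of this set were si:dkey-58f10.7 (3.58), si:dkey-10f21.4 (2.94) and pbdc1 (2.80). Another pbdc1 probe was called in the opposite direction (-0.79), and another si:dkey-58f10.7 probe was not called (0.17).

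In the other direction, si:ch211-140m22.7 was at 5.10, 8.19 and 10.34 in MZdnmt3aa and 9.81, 13.08 and 14.45 in dnmt3bb.2. The difference was -4.03 ± 0.26 (SE, log2; adjusted p = 1.66e-12), and WT, with a median of 13.20, lay nearer dnmt3bb.2 at all stages. Another si:ch211-140m22.7 probe did not pass the test with stage as a block (0.22, adjusted p = 0.0804) and was higher in MZdnmt3aa at shield (0.96). leng9 (-3.76), si:dkey-4c15.14 (-3.40), ccdc137 (-3.05) and zgc:113176 (-3.01) also belonged to this set. The other leng9 probe differed by -0.71 and was not called at any single stage. One other probe each of ccdc137 and si:dkey-4c15.14 differed in the opposite direction, by 1.34 and 1.67, and the other 2 probes of zgc:113176 were not called with stage as a block (0.14 and 0.20) and were higher in MZdnmt3aa at the 1-2 cell stage (1.36 and 1.55).

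For 21 tested probes the software marked every array of one mutant and no array of the other as well above background. All of them were every-stage probes, 11 higher in MZdnmt3aa and 10 in dnmt3bb.2. Each of them entered the test only through the mutant in which it was high, so that bounds are given for their differences and no p. spag1b, which in mammals takes part in assembly of ciliary dynein arms, was at 7.17 to 9.91 in MZdnmt3aa and 1.89 to 3.99 in dnmt3bb.2, at least 27.0-fold higher. WT was at 7.004 to 9.84. Its other 3 probes differed by 0.17, -0.28 and 0.28.

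npsn encodes nephrosin, an astacin-family metalloprotease, and was at least 13.8-fold higher in MZdnmt3aa. The bound was 5.69-fold at shield and 85.5-fold at 2 dpf. Its other probes differed in the same direction, by 1.02 and 2.63. rbck1, a subunit of the linear ubiquitin ligase complex, was at least 13.7-fold higher in MZdnmt3aa, and other probes differed by 1.37 and 0.98. Here WT resembled dnmt3bb.2, with a median of 2.11 beside 2.25 in dnmt3bb.2 and 8.24 in MZdnmt3aa. si:dkey-253d23.3 was the fourth, at least 25.9-fold higher.

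slc25a10b, a mitochondrial dicarboxylate carrier, had the largest bound in the other direction. It was at 2.24, 2.52 and 3.602 in MZdnmt3aa and 9.47, 10.70 and 13.55 in dnmt3bb.2, at least 102.6-fold higher in dnmt3bb.2. Another probe of slc25a10b was an every-stage probe in the opposite direction, 0.89 higher in MZdnmt3aa. gla, the lysosomal alpha-galactosidase, was at least 8.08-fold higher in dnmt3bb.2, and its other probe differed by -0.76. WT was not well above background on this gla probe at any stage. alp3, an alkaline phosphatase, was at least 4.26-fold higher in dnmt3bb.2.

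Agreement between probes was then examined, because probes of one gene should follow the same transcript. A total of 808 every-stage probes carried 1 symbol (3.12% of such probes) and belonged to 709 genes (5.28% of genes tested). For 159 of these genes only 1 probe was tested. Of the other 550, 33 (6%) had all tested probes among the every-stage probes in 1 direction, 15 of them higher in MZdnmt3aa and 18 in dnmt3bb.2. In 295 genes (53.6%) another probe was called in that direction at no stage or in the opposite direction at some stage, and 180 of these held an opposite call.

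The 920 other probes of these genes differed by a median of 0.22 in the direction of the every-stage probe, beside 1.09 for the every-stage probes. With stage as a block, 411 of them (44.7%) were called in the same direction, 108 (11.7%) in the opposite direction and 401 (43.6%) not at all. Over all tested probes, 18.2% were called higher in MZdnmt3aa and 19.5% higher in dnmt3bb.2. In 9 genes, every-stage probes were called in both directions, among them slc25a10b and znf800a. Whether sequence differences between the lines under single probes contribute was not tested.

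**Figure D3:**
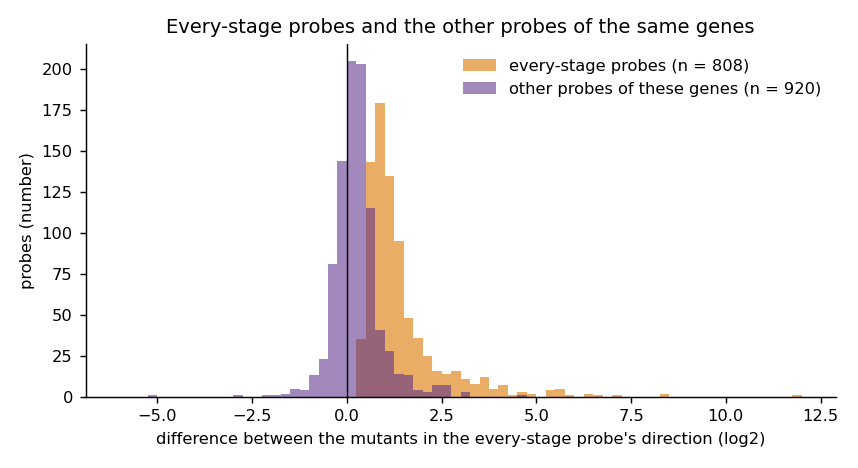
Difference between the mutants with stage as a block, signed in the direction of the gene's every-stage probe (x axis, log2), against the number of probes (y axis), for 808 every-stage probes and 920 other probes of the same genes. Every-stage probes had a median of 1.09 by their selection, and the other probes had a median of 0.22 and extended to both sides of 0.

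Several genes separated the mutants on every probe. Higher in MZdnmt3aa were tsen15, a subunit of the tRNA splicing endonuclease (3.34 and 2.80), ntmt1, a protein N-terminal methyltransferase (2.64 and 2.27), and iah1, an esterase (1.95 and 1.90). etfbkmt, a mitochondrial lysine methyltransferase, was higher on 3 probes by 1.59 to 1.90. The first etfbkmt probe was at 7.25, 8.46 and 9.94 in MZdnmt3aa and 6.01, 7.29 and 8.25 in dnmt3bb.2, and WT lay nearer MZdnmt3aa at all stages. For ntmt1 the difference was 4.62 at shield and 1.21 at 2 dpf on the first probe (interaction adjusted p = 1.63e-13).

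trim35-7, a member of the large tripartite-motif family, was lower in MZdnmt3aa on both probes (-4.00 and -4.10). Its first probe was at 2.06, 7.99 and 12.92 in MZdnmt3aa and 8.32, 12.38 and 14.32 in dnmt3bb.2. At the 1-2 cell stage no MZdnmt3aa array was well above background, and dnmt3bb.2 was at least 381.5-fold and 361.0-fold higher on the 2 probes, whereas the differences of the later stages were -1.73 to -2.93. WT lay nearer dnmt3bb.2 at every stage on both probes.

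sult2st3, a cytosolic sulfotransferase, showed the other arrangement of WT. It was at 1.87, 5.57 and 7.54 in MZdnmt3aa, 9.30, 10.05 and 10.63 in dnmt3bb.2 and 1.75, 5.41 and 7.70 in WT (difference -4.85 ± 0.32, SE, log2; adjusted p = 3.52e-12). Its second probe differed by -3.90. All 5 probes of si:ch73-42k18.1 were lower in MZdnmt3aa, by -2.88 to -3.50, with bounds of 67.6-fold to 193.5-fold at the 1-2 cell stage. epdl1, an ependymin-like secreted protein, was lower on 2 probes (-2.67 and -2.93).

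Some genes among these probes have numbered copies and are described as families, chosen after their values were seen. Probes of such copies may bind each other's transcripts, which was not tested. Over all numbered genes, 21 of 378 tested (5.56%) had an every-stage probe, beside 5.28% of all genes. cyp46a1 encodes cholesterol 24-hydroxylase in mammals. Of 9 probes of its 5 zebrafish copies, 7 were every-stage probes, all higher in dnmt3bb.2, and the family median was -3.55. cyp46a1.4 was at 2.18, 5.67 and 7.32 in MZdnmt3aa and 7.75, 9.22 and 12.33 in dnmt3bb.2 (-4.61 ± 0.52, SE, log2; adjusted p = 5.35e-08). At the 1-2 cell stage it was not well above background in MZdnmt3aa and was at least 242.2-fold higher in dnmt3bb.2. WT lay nearer dnmt3bb.2 at all stages. cyp46a1.3 was the exception (-0.15, adjusted p = 0.628; 1.68 higher in MZdnmt3aa at the 1-2 cell stage), and 1 of the 3 cyp46a1.1 probes was 0.90 higher in MZdnmt3aa, a call lost with slide as a random block (adjusted p = 0.137).

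ggact encodes an enzyme that releases amines from gamma-glutamylamines. All 3 copies had an every-stage probe that was higher in dnmt3bb.2. ggact.2 was at 2.08, 2.39 and 3.05 in MZdnmt3aa and 5.56, 11.80 and 12.10 in dnmt3bb.2, at least 83.1-fold higher in dnmt3bb.2. WT was not well above background before 2 dpf and averaged below dnmt3bb.2 at each stage. ggact.1 was at least 15.2-fold higher in dnmt3bb.2, and another ggact.1 probe did not pass the test with stage as a block (0.96, adjusted p = 0.0418). At shield and the 5-somite stage that probe was higher in MZdnmt3aa, by 3.12 and 3.17, and at 2 dpf it differed by -1.59. ggact.3 was at 1.87 to 3.02 in MZdnmt3aa, 4.12 to 9.56 in dnmt3bb.2 and 1.79 to 4.48 in WT.

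ms4a17a genes encode membrane proteins of the 4-transmembrane MS4A family. Of 22 probes for 13 copies, 13 were called with stage as a block, all higher in dnmt3bb.2, and 5 were every-stage probes of 5 copies. Over all tested probes, 37.7% were called, 19.5% higher in dnmt3bb.2, and 3.13% were every-stage probes. The calls of ms4a17a.12 and of 1 ms4a17a.6 probe were lost with slide as a random block (adjusted p = 0.0323 and 0.0385). At single stages some probes were called in the other direction. All 3 ms4a17a.7 probes were higher in MZdnmt3aa at 1 and 2 dpf (2.98 and 3.20 on one of them), as was ms4a17a.8 at 2 dpf (2.76) and ms4a17a.6 at shield (2.98). The family median was -1.51 and the range -4.33 to 0.72. ms4a17a.9 was at 2.04, 6.21 and 10.70 in MZdnmt3aa and 7.34, 10.63 and 12.29 in dnmt3bb.2, at least 248.1-fold higher in dnmt3bb.2 at the 1-2 cell stage and 48.6-fold at shield. ms4a17a.11 was measured on all 30 arrays, at 7.75, 8.80 and 10.42 against 9.67, 10.23 and 11.45, and differed by -1.40 ± 0.09 (SE, log2; adjusted p = 2.05e-12). Its stage differences were -1.16 to -1.78.

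**Figure D4:**
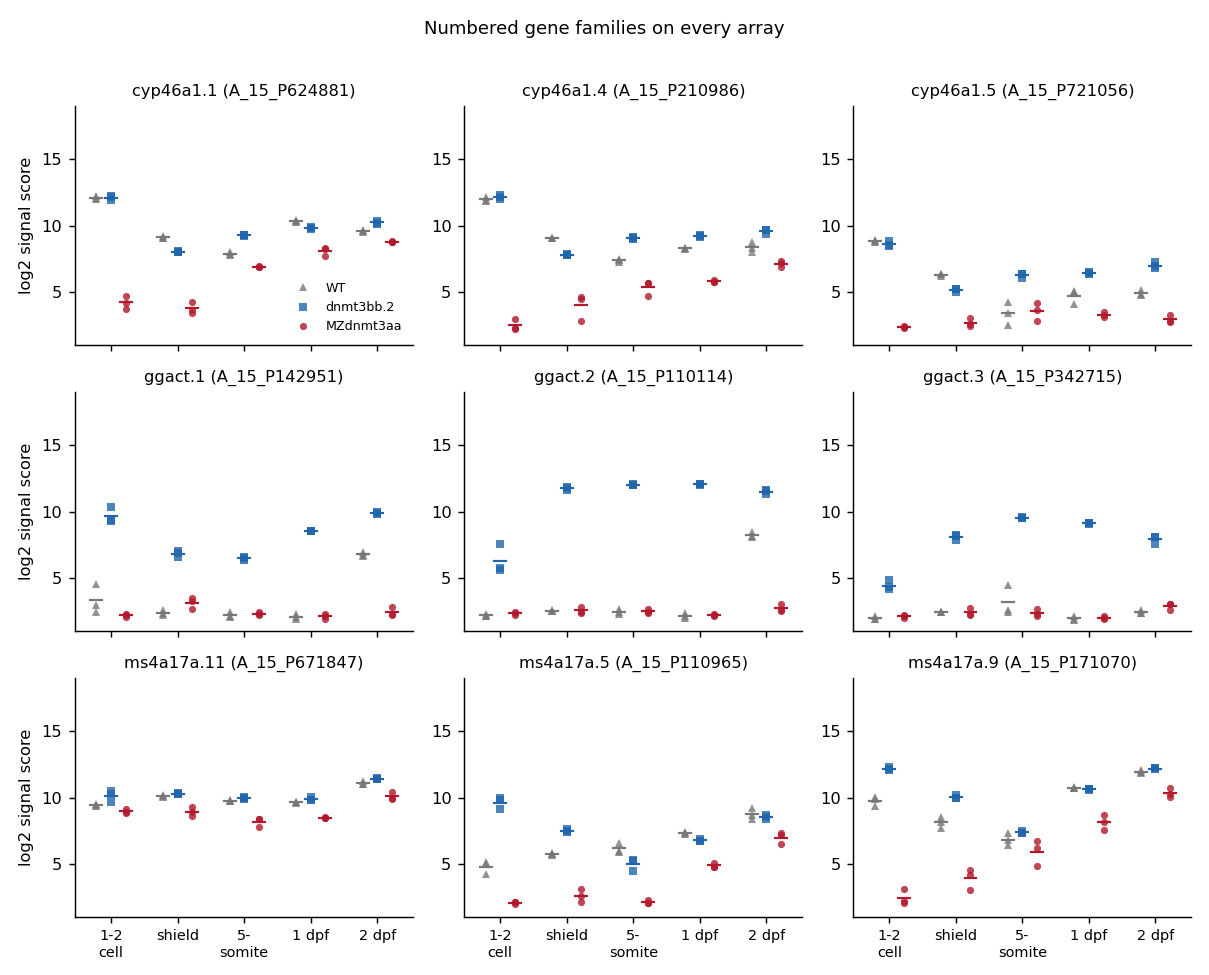
Log2 signal score (y axis) of 9 probes of the cyp46a1, ggact and ms4a17a copies on each array at the 5 stages (x axis); symbols are single arrays (n = 3 per group) and lines are group means. MZdnmt3aa lay below dnmt3bb.2 at every stage on all 9 probes, and WT lay near dnmt3bb.2 for cyp46a1.4 and near MZdnmt3aa for ggact.3.

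Gene lists for pathways and tissues were counted with 1 probe per gene, where 4976 of 13438 genes (37%) were called with stage as a block, 2365 (17.6%) higher in MZdnmt3aa and 2611 (19.4%) in dnmt3bb.2, and the median difference was -0.01. Of 8 genes of the DNA methyltransferase list, 4 were higher in MZdnmt3aa and none in dnmt3bb.2 (median 0.34). The 4 were dnmt3aa, dnmt3bb.1, trdmt1 and dnmt3bb.2, the last being the gene targeted in the other mutant. The trdmt1 call was lost with slide as a random block (adjusted p = 0.143). dnmt1 entered this count by its brightest probe, which was not called. Among 31 genes of repressive histone methylation, 10 were higher in MZdnmt3aa and 2 in dnmt3bb.2 (median 0.14). kmt5c, a histone H4 lysine methyltransferase, was at 9.47, 9.96 and 12.35 against 8.84, 9.34 and 11.32 (0.80 ± 0.05, SE, log2; adjusted p = 1.02e-12). Another kmt5c probe differed by 0.24. suz12a, a core subunit of the Polycomb repressive complex, differed by 0.77 (0.21 on another probe, not called) and ezh2, its catalytic subunit, by 0.34 (0.83 on another probe).

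Readers and erasers of methylation moved in both directions, with 4 of 19 genes higher in MZdnmt3aa and 5 in dnmt3bb.2. zbtb33, the methyl-CpG-binding protein Kaiso, was at 8.68, 8.98 and 9.58 in MZdnmt3aa and 10.11, 10.30 and 10.90 in dnmt3bb.2 (-1.31 ± 0.09, adjusted p = 1.39e-11). Another zbtb33 probe was called in the opposite direction (0.53, adjusted p = 1.99e-05). mbd3b, of the NuRD corepressor, was at 10.31, 12.05 and 12.60 against 11.02, 13.21 and 13.52 (-1.04). WT lay nearer dnmt3bb.2 at all stages for the first zbtb33 probe and for mbd3b.

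Of 21 germ plasm and germline genes, 4 were higher in each mutant (38.1% called). sycp1 and sycp3, both of the synaptonemal complex that joins meiotic chromosomes, were higher in MZdnmt3aa. sycp3 was at 6.42, 8.02 and 9.32 against 2.75, 4.75 and 6.37 (3.18 ± 0.29, SE, log2; adjusted p = 1.45e-09) and did not overlap between the mutants at any stage. The sycp1 difference was 5.95 at the 1-2 cell stage and 1.19 at 2 dpf, where it did not pass the test (adjusted p = 0.0342). The other 3 sycp1 probes differed by 2.15, 2.15 and 1.94.

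Antigen presentation was called in 8 of 14 genes (57.1%), 4 in each direction. The class I gene mhc1uba was at 3.28, 4.25 and 5.61 in MZdnmt3aa, 4.80, 7.42 and 9.24 in dnmt3bb.2 and 1.87, 2.45 and 3.26 in WT (-3.06 ± 0.27, adjusted p = 5.79e-10). The tapasin gene tapbp.1, whose product loads peptide onto class I molecules, was 2.16 higher in MZdnmt3aa, by 0.42 and 0.31 at the first 2 stages (not called) and 2.92 to 3.96 later. psmb10, an immunoproteasome subunit, was an every-stage gene in the same direction (1.58).

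In the pancreas and liver list, 11 of 27 genes were called (40.7%), 8 of them higher in dnmt3bb.2, with a median of -0.04 over the list. With stage as a block, the digestive protease genes prss59.1, prss59.2, prss1, ela2l, ela2, cpa5 and cpb1 were all lower in MZdnmt3aa. Probes of close copies such as prss59.1 and prss59.2 may share signal. prss59.1 was at 2.27, 3.79 and 6.58 in MZdnmt3aa and 3.87, 11.59 and 12.78 in dnmt3bb.2 (-6.57 ± 0.63, SE, log2; adjusted p = 3.21e-09). It did not pass the test at the 1-2 cell stage (-0.90) and differed by -6.65 at shield and -10.02 at 2 dpf. WT was at 5.30, 9.16 and 11.56. ela2l differed by -5.98, -5.43 and -5.85 on 3 probes, and on the first of them WT, with a median of 2.21, resembled MZdnmt3aa (2.55) and not dnmt3bb.2 (10.32). pdx1, a pancreas transcription factor, was 1.02 higher in MZdnmt3aa.

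Cytochromes P450 were called at the background rate, 22 of 58 genes (37.9%). cyp17a1, an enzyme of sex steroid synthesis, was 4.50 ± 0.92 (SE, log2) higher in MZdnmt3aa, and its dnmt3bb.2 values spread from 1.89 to 13.61. Another cyp17a1 probe was not called (0.42). This call was lost with slide as a random block (adjusted p = 0.0711). Among 87 numbered zinc finger genes, 27 were higher in dnmt3bb.2 and 10 in MZdnmt3aa. At the 1-2 cell stage these counts were 38 and 5, where 22% and 17.4% of all genes, 39.4% together, were called in those directions.

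Of 81 ribosomal protein genes, 41 were higher in MZdnmt3aa at the 1-2 cell stage and 5 in dnmt3bb.2 (median 0.29). Over all genes these shares were 17.4% and 22%. From shield to 2 dpf, 2, 1, 1 and 1 ribosomal protein genes were higher in MZdnmt3aa and 7, 8, 5 and 6 in dnmt3bb.2. Of all 13438 genes, 1910, 1611, 1430 and 1093 were higher in MZdnmt3aa at these stages and 2008, 1842, 1181 and 961 in dnmt3bb.2. With stage as a block 5 of the 81 were higher in MZdnmt3aa and 14 in dnmt3bb.2, beside 17.6% and 19.4% of all genes. These counts became 15 and 12 after quantile normalization, so that no direction is given for this family. rps8b, of the small subunit, was at 6.22, 6.99 and 7.67 against 8.43, 9.37 and 9.69 and was an every-stage gene (-2.31 ± 0.14, adjusted p = 5.88e-13).

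Most tissue lists were called below the background of 37%, unlike the pancreas and liver and germline lists above. These were hematopoietic genes (10.8%, 4 of 37), muscle contractile genes (9.68%, 3 of 31), segmentation genes (12%), neural genes (12.1%), lens crystallins (12.5%), yolk lipid export genes (13.6%), gastrula patterning genes (15.2%), maternal and oocyte genes (16%) and Hox genes (17.02%). On the 1 probe counted per gene, none of these lists held an every-stage probe. Such probes were rare over all 13438 genes as well, with 185 higher in MZdnmt3aa and 204 in dnmt3bb.2. A dimmer probe of a listed gene could be one, as for dnmt1 in the maternal and oocyte list (11.79). Of the hematopoietic genes, runx1 (0.40), gata2a (0.47) and coro1a (0.85) were higher in MZdnmt3aa and csf1ra, the receptor of macrophage colony-stimulating factor, was higher in dnmt3bb.2 (-0.72). The calls of coro1a and csf1ra were lost with slide as a random block (adjusted p = 0.01003 and 0.0932). After normexp background correction, 3 hematopoietic genes were higher in MZdnmt3aa and 6 in dnmt3bb.2. The direction also differed at single stages. At 1 dpf, 9 of the 37 hematopoietic genes were higher in dnmt3bb.2 and 1 in MZdnmt3aa (median -0.48), beside 1181 and 1430 of all 13438 genes. At 2 dpf these counts were 4 and 0, beside 961 and 1093. Heat shock and stress genes (18.75%), housekeeping genes (23.3%), claudins (25%) and interferon response genes (33.3%) were also below the background. Above it lay the finTRIM and TRIM family (41.4%), numbered zinc fingers (42.5%), NITR and GIMAP receptors and opsins (42.9% each), p53 targets (47.4%) and glutathione transferases (50%). NITR and GIMAP receptors, opsins, p53 targets and glutathione transferases held only 7, 14, 19 and 16 tested genes. After normexp background correction, opsin calls went from 1 higher in MZdnmt3aa and 5 in dnmt3bb.2 to 0 and 2. NITR and GIMAP calls went from 2 and 1 to 1 and 1, as they did after quantile normalization.

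**Figure D5:**
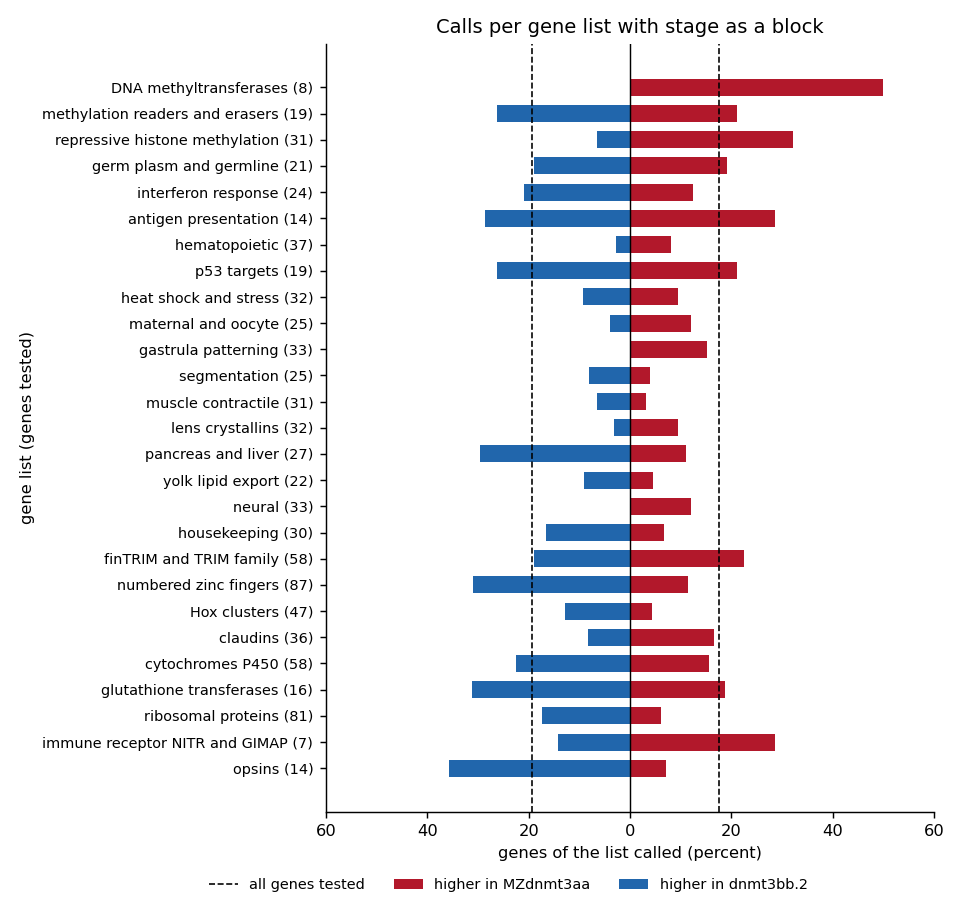
Percent of the tested genes of each list called with stage as a block (x axis), to the right for genes higher in MZdnmt3aa and to the left for genes higher in dnmt3bb.2, with the number of genes tested in brackets (y axis); dashed lines mark all genes tested (17.6 and 19.4%). Bars for hematopoietic, muscle and segmentation genes end short of both lines.

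The size of the difference depended on the stage for 15728 probes (40.6%) in an F test of the 4 contrasts between stage differences. Of the 1212 every-stage probes, 520 (42.9%) were among them. A further set of 2400 probes (6.19%) was called in opposite directions at 2 stages. si:ch211-121a2.2 differed by -2.80 at the 1-2 cell stage (adjusted p = 0.000857) and by 6.37 at 1 dpf. zgc:158445 was at least 16.2-fold higher in MZdnmt3aa at shield and at least 7.39-fold higher in dnmt3bb.2 at 1 dpf. fbxo44.9, an F-box gene that lies 4 annotated genes from dnmt3bb.2, was at least 15.4-fold higher in MZdnmt3aa at the 1-2 cell stage. It differed by -4.06 at shield. Another fbxo44.9 probe shared this reversal (3.99 and -4.29). A further probe did not, at 0.44 (not called) and -4.26.

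WT was not used to choose the every-stage probes. Its group mean lay nearer dnmt3bb.2 at all 5 stages for 286 of the 1212 probes (23.6%), nearer MZdnmt3aa for 266 (21.9%), and changed side between stages for 660. Among the 621 probes higher in MZdnmt3aa these counts were 157, 149 and 315, and among the 591 higher in dnmt3bb.2 they were 129, 117 and 345.

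Gene order was read from the GRCz12tu reference annotation, which serves here only for names and neighbours. Of the 50 annotated neighbours of dnmt3aa, 24 were tested on 44 probes. Of these probes 17 were called with stage as a block (38.6%) and 3 were every-stage probes (6.82%). The shares over all tested probes were 37.7% and 3.13%. The 3 every-stage probes were those of fez2b (1.18), hadhaa (1.48) and hadhb (-0.85). The last pair encodes both subunits of the mitochondrial trifunctional protein of fatty acid oxidation. Other hadhaa probes differed by 1.14, 0.62 and 0.32, the last not called. Other hadhb probes differed by -0.53 and, on the brightest, by -0.08 (not called). Around dnmt3bb.2, 8 of 39 probes of 23 neighbours were called (20.5%) and 0 were every-stage probes. The called probes went in both directions and included those of dnmt3bb.1 (1.75), dnmt3bb.3 (0.79) and fbxo44.9 (-1.81). Another dnmt3bb.3 probe was not called (0.31). Across the genome, 173 of the 709 genes with an every-stage probe (24.4%) had another within 5 annotated genes, beside 2501 of 12729 other tested genes (19.6%). The longest run held 7 genes, from arid1b to snw1. By their every-stage probes, 4 of them, all cyp46a1 copies, were higher in dnmt3bb.2 and 3 were higher in MZdnmt3aa. The next was a run of 5 from fhip2b to sult1st3, with 3 higher in MZdnmt3aa and 2 in dnmt3bb.2. rbck1, pxk, kctd6a and ccdc71 formed a run of 4 whose every-stage probes were all higher in MZdnmt3aa. Another pxk probe differed by -0.32. A run of 4 ms4a17a copies had every-stage probes higher in dnmt3bb.2.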

How the data were processed

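Arrays were scanned in 1 colour (Cy3) and read with Agilent Feature Extraction 12.0.3.1, per the file headers. The authors deposited normalized signal intensity values, which equal each array's background-subtracted intensity multiplied by 1 factor so that its mean after trimming 2% reaches 2500. This scaling assumes similar total signal on each array. Scanner files hold spot intensity and other columns of software flags (0 or 1), which the authors deposited unnormalized. The log2 of the deposited values was used. Spots flagged as outliers were left out, and spots of 1 probe were averaged. limma 3.58.1 (R 4.3.3) was fitted with stage and genotype, and with 10 group means for the stage differences and their interaction. p-values were adjusted over 38744 probes by the Benjamini-Hochberg method, and calls required 0.01 or below, the threshold of the study's methods. The fits were tested on simulated data. A bound sets the brighter mean over all its arrays against, per array, the higher of the lowest signal well above background and the dim probe's own value.

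Genes named are the DNA methyltransferase probes, the 6 largest measured every-stage genes and up to 5 with 1 mutant not well above background in each direction, 5 in each direction whose probes all agree, 4 with opposite calls, the largest called genes of each list, and neighbours of the targeted genes. One gene that this rule selects is not reported here. Further members of lists and families were named after their values were seen. The comparison, its members and all lists were chosen with earlier results of these data known. Gene symbols were assigned by matching the accessions in the array files, which can be old, to the reference annotation. Replicate numbers did not pair the samples: of 15 pairs with the same number, 1 had deviations correlated over 0.1 (r from -0.063 to 0.111). Alternatives comprised other scalings, background correction, filters, thresholds, stages or replicates left out, slide or replicate blocks and array weights.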

Additional observations from a re-analysis of the deposited data

Results flagged for a closer look

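These results were marked because the difference between the mutants itself differed between stages. The stage dependence test passed for 15728 probes, and 2400 were called in opposite directions at 2 stages. Of 117 probes named by rule, 71 depended on the stage. The interaction adjusted p (limma F test) was 1.31e-10 for dnmt3bb.2, 4.83e-05 for dnmt3bb.1, 0.00268 and 0.00286 for the 2 dnmt3ab probes and 0.00471 for the divergent dnmt1 probe. The largest differences in opposite directions were 5.42 at shield and -4.99 at 1 dpf for zgc:158445, 6.37 and -2.80 for si:ch211-121a2.2, and 4.26 and -4.06 for fbxo44.9. For si:ch211-132b12.1 they were 4.01 at the 5-somite stage and -4.27 at the 1-2 cell stage. The second probe of si:ch211-132b12.1 did not share this reversal and was higher in MZdnmt3aa at both stages (3.65 and 1.52). A further fbxo44.9 probe likewise did not share the reversal of its gene.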

How the results depend on the processing

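The count with stage as a block was 14618 of 38744 probes tested (37.7%). It became 3767 with a 2-fold minimum and 5508 with slide as a random block (correlation 0.551). A stricter filter tested only the 21110 probes that cleared background on each of the 30 arrays. It gave 9687 calls, fewer in number but a larger share of the probes tested. With a 2-fold minimum the stages gave 7419, 5665, 5311, 3815 and 2967 calls and 393 every-stage probes. At an adjusted p of 0.05 the count was 11897 at 1 dpf, 10212 at 2 dpf and 2040 at every stage. The stages fitted alone gave 8241, 4380, 7015, 8286 and 4463 calls and 381 every-stage probes, 373 of them shared with the 1212. The slide block gave 3848 calls at 2 dpf and 789 at every stage. Array weights, added after seeing the data, gave 16945, 9968, 19367, 20187 and 12387 calls at the 5 stages, 2083 every-stage probes, of which 1123 were shared, and 24086 stage-dependent probes. Without the 1-2 cell stage, 9161 probes depended on the stage. The cause of these shifts was not tested.

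Leaving out 1 replicate gave 13966 to 14667 calls with stage as a block, 11736 to 14772 at the 1-2 cell stage, 8699 to 11635 at shield, 7978 to 11260 at 5-somite, 5834 to 8694 at 1 dpf, 4741 to 7210 at 2 dpf, 1046 to 1300 at every stage and 14037 to 16551 with stage dependence. With the replicate number as a block, 11130 probes were called with stage as a block, 938 at every stage and 11703 with stage dependence, all within 1.5-fold of the counts without it.

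Of 136 probes named by rule or family, 97 kept direction and call under every alternative. With the slide block 32 probes lost the call or reversed, among them cyp17a1 (adjusted p = 0.0711), crygs1 (0.0217), csf1ra (0.0932), coro1a (0.01003) and myom1a (0.143). Only 4 probes not called with stage as a block reversed. One dnmt1 probe was at -0.0054 after quantile normalization, -0.0063 with normexp, -0.023 without the 1-2 cell stage and -0.018 to 0.045 with 1 replicate left out. Another dnmt1 probe was at 0.0060 with normexp, 0.011 with array weights, 0.0043 without 5-somite, 0.0034 without 2 dpf and -0.051 to 0.016 with 1 replicate left out. zgc:158445 was at 0.13 with normexp and 0.33 without 1 dpf. si:ch211-132b12.1 was at -0.070 with normexp, -0.20 with a floor of 32, -0.090 with the slide block, -0.019, -0.79 and -0.0022 without shield, 5-somite or 1 dpf, and -0.063 to 0.45 with 1 replicate left out.

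Genotype was confounded with slide, scan day and line, embryos were pooled, and 3 arrays per group limit the precision. Bounds are given for only part of the probes near background. Other differences with a mutant near background on some arrays are given as log2 differences, some with adjusted p. The size of those differences is uncertain, because the dim values are not well above background.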
